A study of Mus musculus with 25 samples.

Results

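The genes described are the subunits of the GABA and glutamate receptors. They were taken from the deposited table by symbol: the GABA-A families alpha, beta, gamma, delta, epsilon, theta, pi and rho, both GABA-B subunits, and the AMPA, NMDA, kainate, delta and metabotropic glutamate receptor genes. The symbols matched 47 of the 30903 genes of the table, and 42 of them are described. The data are transcript levels of 25 single cells taken from 2 adjoining parts of the ventral hypothalamus, the arcuate nucleus and the median eminence. The cells came from adult male RIP-Cre mice, strain (C57BL/6 x DBA)F2, with an average age of 63 days, in which a rat insulin promoter drives Cre recombinase. Each cell carried green fluorescent protein (GFP) from an adeno-associated virus that is read only after Cre has acted, and GFP+ cells were picked by hand after papain digestion and read with Smart-Seq2, a method that copies whole transcripts. All cells came from a pool of 2 mice, so they form 1 group and 1 pooled sample. No group was compared with another, no p-value is given, and each cell goes by its label number.

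GABA-A receptors are chloride channels built from several subunits, as a rule alpha and beta with a gamma or delta subunit, and they carry fast and tonic inhibition. GABA-B receptors act through G proteins and need both of their subunits. AMPA and kainate receptors carry fast excitation, NMDA receptors admit calcium when glutamate, a co-agonist and depolarisation coincide, and the metabotropic receptors act through G proteins. Arcuate neurons receive both kinds of input, and which subunits a cell makes sets the speed, drug sensitivity and ion flow of its receptors.

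Levels are in RPKM, that is reads divided by gene length and by sequencing depth, so genes can be compared per length. Detection of a gene in a cell means a level of at least 10 RPKM. The depth of a cell, estimated from the steps between low values, was 892800 (cell 9) to 3070800 reads (cell 11), with a median of 1816300. At the median depth, 10 RPKM equalled an estimated 38.2 reads for the shortest member, Gabrr2, and 451 for the longest, Grin2b. Intervals on shares of cells are exact Clopper-Pearson 95% intervals and cover counting error only. By the same method 0 of 25 cells has an upper limit of 13.7%. A gene listed at 0 in a single cell may have been missed. The neuronal markers Snap25, Tubb3, Stmn2 and Uchl1 were detected in every cell, each cell had at least 5 of 6 neuronal markers, and the astrocyte, oligodendrocyte precursor and microglial lists were detected in none. Pecam1 of endothelium was detected in 4 cells and Col23a1 of tanycytes in 1. Mog, Mobp and Mag of oligodendrocytes, Cldn5 of endothelium and Rax of tanycytes were listed at 0 throughout.

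The site that separates AMPA receptors by calcium flow lies in the channel pore. The glutamine codon at this site is changed to arginine in Gria2 messenger RNA by the editing enzyme ADAR2 (gene Adarb1), which keeps calcium out of receptors that contain this subunit. The genomic codes of the 4 AMPA genes around the site are shown because the calcium flow of an AMPA receptor turns on the share of Gria2 described below. They were read from GENCODE M21 transcripts (GRCm38), 5′ to 3′ on the gene's strand, with the glutamine codon in capitals.
Gria1 (chr11:57243082-57243108, plus strand): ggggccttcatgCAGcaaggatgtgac
Gria2 (chr3:80706899-80706925, minus strand): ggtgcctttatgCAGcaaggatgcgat
Gria3 (chrX:41610253-41610279, plus strand): ggtgcttttatgCAGcaaggatgtgat
Gria4 (chr9:4464125-4464151, minus strand): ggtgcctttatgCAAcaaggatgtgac
The windows of Gria1, Gria3 and Gria4 differed from that of Gria2 at 4, 2 and 3 of 27 bases. Gene levels do not show whether a transcript was edited.

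Receptor genes were common in these cells. Of the 42 members described, 32 (76.2%) were detected in at least 1 cell, against 42.7% of all genes of the table. In at least 13 of the 25 cells 12 members (28.6%) were detected, against 13.5% of all genes. The other 20 detected members were found in 1 to 12 cells, and the median over the members was 8.5 cells. In no cell were 10 members detected: Gabra6, Gabrd, Gabrp, Gabrr1, Gabrr3, Grin2c, Grin3b and Grm6 were listed at 0 everywhere, while Gabrr2 reached 3.26 RPKM in cell 7 and Grin2d 4.88 RPKM in cell 5. Of all values of these members in cells, 52.5% were 0, 12.1% lay above 0 but under 10 RPKM and 35.4% reached 10 RPKM. A cell had 10 (cells 1 and 12) to 21 members detected (cells 7 and 24), with a median of 14. Cells with more detected genes overall tended to have more members (Spearman 0.57, n = 25), whereas the relation with estimated depth was weak (Spearman 0.15, n = 25). Longer members tended to be detected in more cells (Spearman 0.52 over 42 genes), and whether length plays a part in the counts was not tested.

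**Figure D1:**
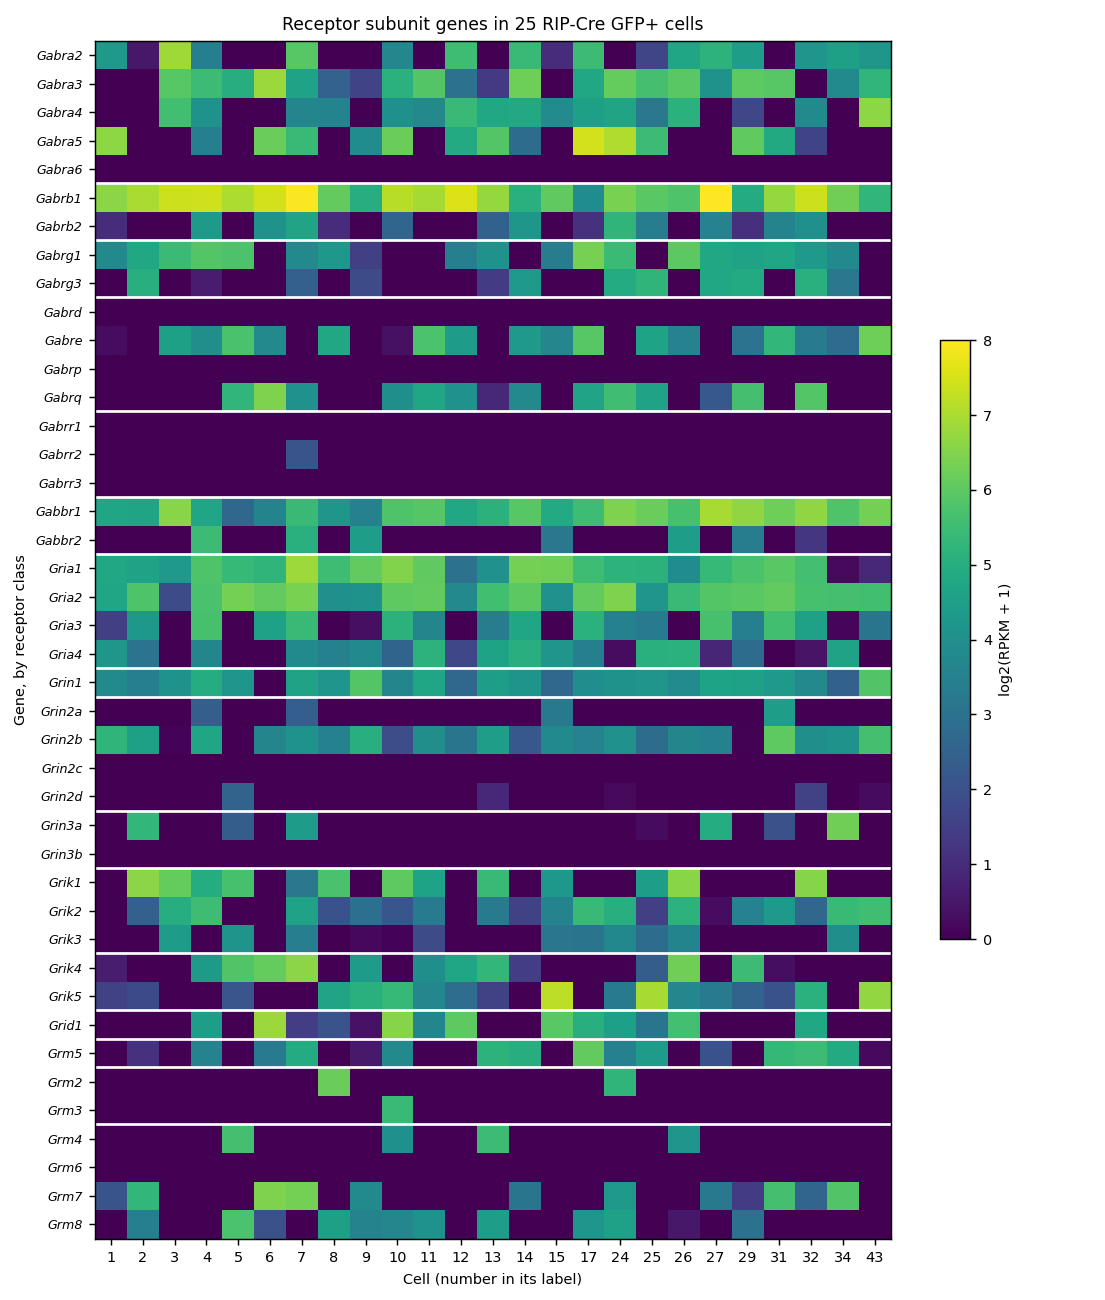
Level of each of the 42 receptor genes described (rows, grouped by receptor class between white lines) in each of the 25 cells (columns, by label number), as log2(RPKM + 1) in colour. Gabrb1, Gabbr1, Gria1 and Gria2 form unbroken or nearly unbroken rows, while most alpha, kainate and metabotropic genes are bright in some cells and at 0 in others.

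The GABA-A alpha subunits, which form part of the GABA and benzodiazepine sites, were shared out unevenly, and none of those described was present in all cells. Gabra3, a benzodiazepine-sensitive alpha, was detected in 17 cells and had a lowest value of 0, a median of 30.6 and a highest of 109 RPKM (cell 6). Gabra4, known from thalamus and striatum and insensitive to classical benzodiazepines, was detected in 15 cells, at 0, 12.7 and 98.6 RPKM (lowest, median, highest in cell 43). Gabra2, a benzodiazepine-sensitive alpha common in the forebrain, was detected in 13 cells, at 0, 12.1 and 115 RPKM (lowest, median, highest in cell 3). Each of these 3 genes thus ranged from 0 to about 100 RPKM, and the medians lay far below the highest cells. Gabra5, known for tonic inhibition in the hippocampus, was detected in 12 cells and reached 173 RPKM in cell 17. Gabra6, the alpha of cerebellar granule cells, was listed at 0 in all cells.

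Alpha genes met in the same cell in changing pairs. Among all 25 cells Gabra3 was detected in 68%, Gabra4 in 60% and Gabra2 in 52%. Gabra3 and Gabra2 were detected together in 10 cells, that is 58.8% of the cells with Gabra3 and 76.9% of those with Gabra2. Gabra3 and Gabra4 likewise shared 10 cells, 58.8% of the cells with Gabra3 and 66.7% of those with Gabra4. Gabra5 met Gabra3 in 8 cells, and met Gabra2 and Gabra4 in 6 cells each. The shares for Gabra3 with Gabra4 lay close to those of all cells. Whether any pair met more often than the shares of all cells give was not tested. No pair of these genes rose and fell together closely: Spearman's correlation over the 25 cells ran from -0.012 for Gabra2 with Gabra5 to 0.39 for Gabra2 with Gabra4. Gabra3 had the higher level against Gabra4 in 17 cells and against Gabra2 in 15, while Gabra5 exceeded Gabra3 in 10 cells and stood below it in 13.

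Beta subunits complete the GABA site and are needed to bring the receptor to the surface. Gabrb1 was detected in all 25 cells, from 13.8 (cell 17) through a median of 105 to 255 RPKM (cell 27). No other receptor gene described here was detected in every cell. Gabrb2, a common beta of adult cortex, was detected in 8 cells, where its median was 17.0 RPKM, and reached 36.9 RPKM in cell 24. Gabrb1 exceeded Gabrb2 in all 25 cells. Gabrb1 also exceeded Gabra2 in 23 cells and Gabra3 and Gabra5 in 21 each, so its level stood above that of these alpha genes in most cells.

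Gabrb1 starts beside Gabra4 on chromosome 5, on opposite strands. Their nearest RefSeq starts lie 387 bases apart and each gene runs across the start of the other, yet Gabra4 was detected in 15 cells and Gabrb1 in 25. Gabrb1 had the higher level in 23 cells and Gabra4 in cells 17 and 43, where Gabra4 stood at 22.3 and 98.6 RPKM and Gabrb1 at 13.8 and 37.7 RPKM. The 300 bases around each of these starts (250 before, 50 after) are shown because this closely set pair differed in the number of cells. They are RefSeq promoters of GRCm38.p6, 5′ to 3′ on the gene's strand, with each CG in capitals.
Gabra4 (chr5:71658259-71658558, minus strand): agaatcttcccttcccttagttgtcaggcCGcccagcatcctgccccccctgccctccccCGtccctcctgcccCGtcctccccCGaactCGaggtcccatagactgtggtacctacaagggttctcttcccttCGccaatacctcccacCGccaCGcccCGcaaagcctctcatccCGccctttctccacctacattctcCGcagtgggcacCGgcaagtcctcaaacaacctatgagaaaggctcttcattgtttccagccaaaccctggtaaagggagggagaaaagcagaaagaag
Gabrb1 (chr5:71657671-71657970, plus strand): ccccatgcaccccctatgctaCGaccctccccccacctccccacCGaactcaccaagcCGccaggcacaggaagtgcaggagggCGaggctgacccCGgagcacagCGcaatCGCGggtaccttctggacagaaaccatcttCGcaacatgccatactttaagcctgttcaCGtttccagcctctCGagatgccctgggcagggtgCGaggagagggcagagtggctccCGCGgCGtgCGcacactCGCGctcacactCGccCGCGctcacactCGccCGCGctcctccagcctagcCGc
The Gabra4 window held 12 CG and the Gabrb1 window 25. RefSeq lists another Gabrb1 start farther into the gene, whose window (chr5:71699682-71699981, not shown) held 9 CG, and the levels per gene do not tell which start was used. Of the 32851 RefSeq promoters of the same length, 39.6% held at least as many CG as Gabra4 and 18.4% at least as many as the Gabrb1 window shown. The CG count is the same on both strands, and it describes the letters of these windows only.

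Gamma subunits anchor the receptor at synapses and complete the benzodiazepine site. Gabrg1, a gamma of low benzodiazepine sensitivity found in few brain regions, was detected in 16 cells, at 0, 15.9 and 81.3 RPKM (lowest, median, highest in cell 17), and was listed at 0 in 6. Gabrg3, a rare gamma of the brain, was detected in 7 cells (2, 14, 24, 25, 27, 29 and 32), was listed at 0 in 13 and reached 36.9 RPKM in cell 25. In the cells where each was detected the medians were close, at 26.2 RPKM for Gabrg1 and 29.2 RPKM for Gabrg3. Both were detected in 5 cells, 31.3% of the cells with Gabrg1 and 71.4% of those with Gabrg3. Gabrg1 was the higher in 14 cells and Gabrg3 in 7.

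Epsilon and theta, subunits known mainly from the hypothalamus and the monoamine nuclei of the brainstem, were present in most cells as one or the other, and together in a minority. Gabre, the epsilon subunit, which makes receptors less sensitive to benzodiazepines and anaesthetics, was detected in 14 cells, at 0, 11.9 and 73.9 RPKM (lowest, median, highest in cell 43). Gabrq, the theta subunit, was detected in 12 cells and reached 86.0 RPKM in cell 6. At least 1 of them was found in 19 cells (76%, interval 54.9 to 90.6%) and both in 7. They lie on the X chromosome on either side of Gabra3. Gabra3, Gabrb1 and Gabre were detected together in 11 cells, and Gabra3, Gabrb1 and Gabrq in 10. All 4 of these genes were found in 6 cells (5, 6, 11, 14, 17 and 25). Of the cells with Gabre, 78.6% had Gabra3, and of those with Gabrq, 83.3% had it, against 68% of all 25 cells. Gabrq was detected in 50% of the cells with Gabre and in 48% of all cells. Whether these genes go together was not tested. Gabre exceeded Gabrq in 15 cells and Gabrq exceeded Gabre in 8. Gabrd, the delta subunit of tonic receptors, and Gabrp, the pi subunit known from tissues outside the brain, were listed at 0 in all cells. Of the rho genes, known from the retina, only Gabrr2 was above 0, at 3.26 RPKM in cell 7.

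**Figure D2:**
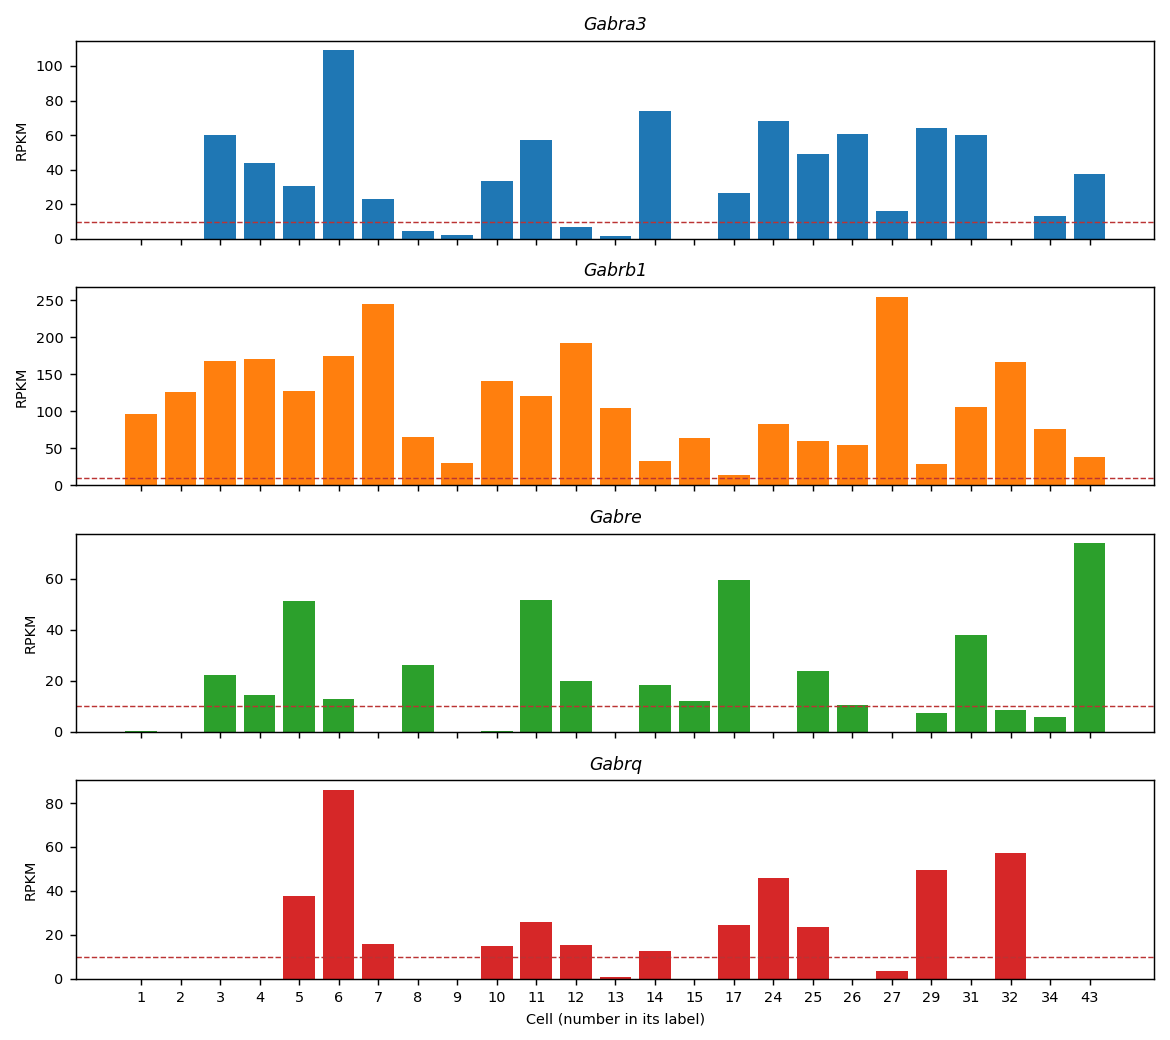
Level in RPKM (vertical axis, from 0, with its own scale in each panel) of Gabra3, Gabrb1, Gabre and Gabrq, from top to bottom, in each cell (horizontal axis, by label number), with a dashed line at 10 RPKM. Gabrb1 lies above the line in all 25 cells, Gabra3 in 17, Gabre in 14 and Gabrq in 12, and only some of the cells high in Gabre are also high in Gabrq.

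GABA-A genes tend to lie in chromosomal clusters, and those on chromosome 5 and on the X chromosome are described. Gabrg1, Gabra2, Gabra4 and Gabrb1 (chr5:70751047-72149037, GRCm38) summed to between 32.3 and 372 RPKM per cell, with a median of 153 RPKM. At least 1 of them was detected in all 25 cells and all 4 in 5 cells. The X cluster of Gabre, Gabra3 and Gabrq (chrX:72255999-72842602) summed to between 0 and 208 RPKM, with a median of 66.1 RPKM, and at least 1 of its genes was detected in 21 cells. The chromosome 5 sum was the higher of the pair in 20 cells and the X sum in 5. The chromosome 5 sum covers 4 genes and the X sum 3. Gabrb1, detected in all 25 cells at a median of 105 RPKM, is part of the chromosome 5 sum. Smart-Seq2 marks no strand, so reads where genes on opposite strands overlap cannot be assigned. In the annotation Gabra4 and Gabrb1 overlap by 196 bases, introns included, and 18 of the 42 members overlap a gene on the other strand.

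GABA-B transcripts were unequal. Gabbr1, whose product binds GABA, was detected in 24 cells, at 5.47 (cell 5), 49.8 and 123 RPKM (lowest, median, highest in cell 27), and was above 0 in all 25. Gabbr2, whose product couples to the G protein and carries Gabbr1 to the surface, was detected in 4 cells (4, 7, 9 and 26; 16%, interval 4.54 to 36.1%) and was listed at 0 in 18. Its level in those 4 cells was 44.1, 32.6, 20.9 and 21.3 RPKM, and Gabbr1 stood there at 25.4, 42.2, 10.4 and 49.8 RPKM. Both subunits of the heterodimer were thus detected in 4 cells, and Gabbr2 was the higher of the pair in cells 4 and 9 only.

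**Figure D3:**
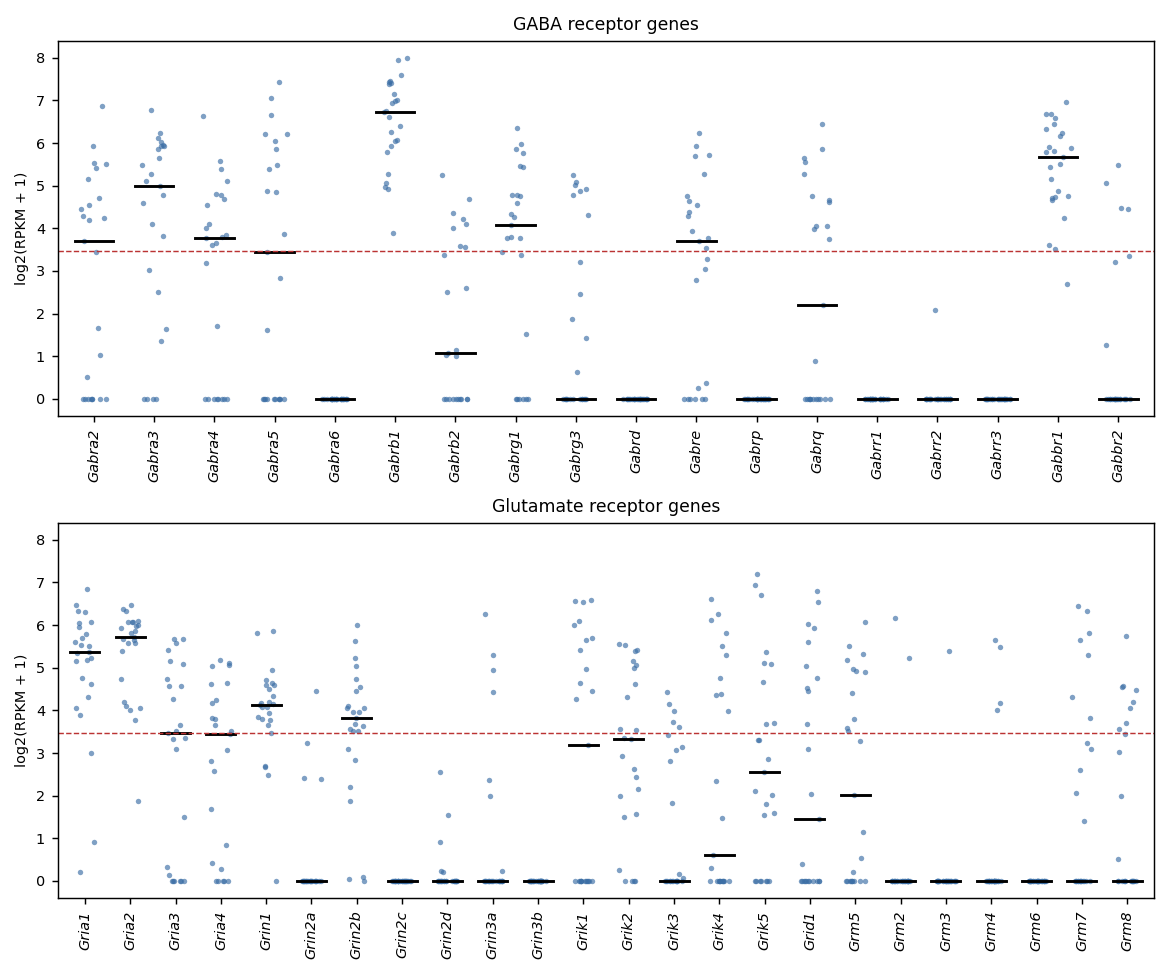
Log2(RPKM + 1) of every receptor gene described (horizontal axis; GABA receptor genes above, glutamate receptor genes below), with 1 point per cell, a black bar at the median of the 25 cells and a dashed line at 10 RPKM. Gabrb1 lies above the line in all cells, Gabbr1 and Gria2 in 24, and many genes split between cells at 0 and cells far above the line.

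Among the AMPA receptor genes, Gria1 and Gria2 were present in nearly all cells. Gria2, the subunit that keeps calcium out once edited, was detected in 24 cells, at 2.64 (cell 3), 51.6 and 87.5 RPKM (lowest, median, highest in cell 24). Gria1, which is added to synapses during plasticity, was detected in 22 cells, at 0.15 (cell 34), 40.2 and 114 RPKM (lowest, median, highest in cell 7). Gria3 was detected in 13 cells, at 0, 10.1 and 50.2 RPKM (lowest, median, highest in cell 4). These 3 genes differed in spread: the medians of Gria1 and Gria2 were close, while Gria3 stayed near the detection level in the median cell. Gria4, which gives fast currents, was detected in 12 cells and reached 35.3 RPKM in cell 11. Gria1 and Gria2 were detected together in 21 cells, with cells 3, 12, 34 and 43 as the exceptions, and all 4 AMPA genes in cells 4, 7, 11 and 14.

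The share of Gria2 in the summed AMPA level, which can be read per length, varied widely. It ran from 12.3% in cell 3 to 84.7% in cell 43, with a median of 38.8% and an SD of 18.2 percentage points over the 25 cells, and exceeded 50% in 7 cells. The share of Gria1 ran from 0.205% in cell 34 to 87.7% in cell 3, with a median of 34.9%, and exceeded 50% in 4 cells. Gria3 held at most 33.6% (cell 27) and Gria4 at most 37.9% (cell 26), and neither led in any cell. Gria2 was the highest AMPA gene in 15 cells (60%, interval 38.7 to 78.9%) and Gria1 in 10. The summed AMPA level was lowest in cells 3 and 12, at 21.5 and 22.02 RPKM, had a median of 120 RPKM and was highest in cell 7, at 251 RPKM. In cell 3, therefore, the extreme share of Gria1 rested on a low sum, with Gria1 at 18.9 RPKM and Gria2 at 2.64 RPKM.

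**Figure D4:**
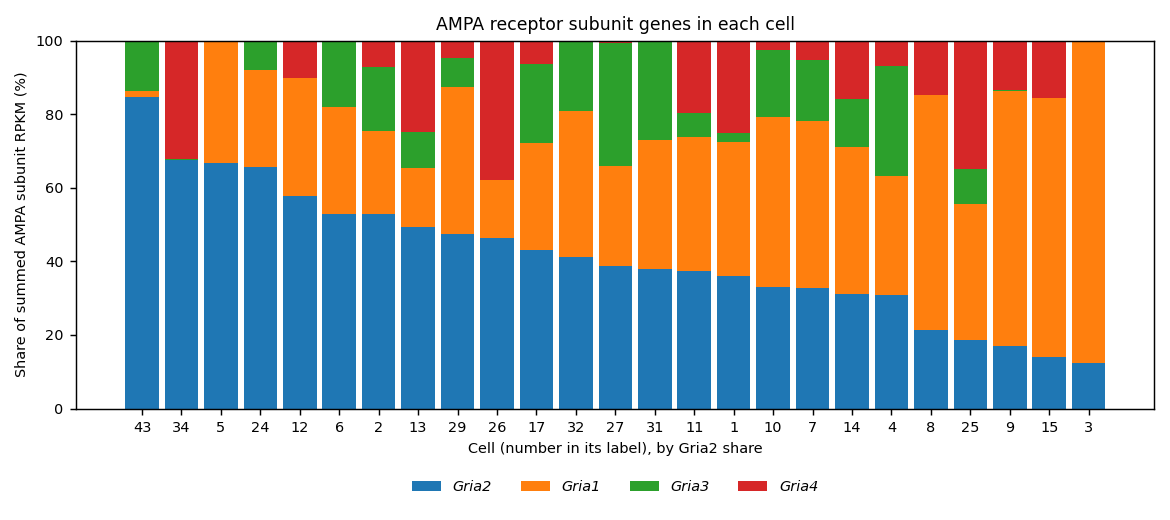
Share of the summed AMPA subunit level (vertical axis, percent of RPKM) held by Gria2, Gria1, Gria3 and Gria4 in each cell (horizontal axis, by label number, ordered by the share of Gria2). The share of Gria2 runs from 84.7% in cell 43 to 12.3% in cell 3, where Gria1 makes up the rest.

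The NMDA receptor genes showed 1 common pair. Grin1, the obligatory subunit that binds glycine or D-serine, was detected in 21 cells, at 0 (cell 6), 16.5 and 57.3 RPKM (lowest, median, highest in cell 9). Grin2b, a glutamate-binding subunit with slow decay, was detected in 18 cells, at 0 (cell 5), 13.2 and 63.6 RPKM (lowest, median, highest in cell 31). Both genes were thus above 0 in 24 cells each, with medians close to the detection level. Grin2a, the GluN2 gene that gains ground in the maturing cortex, was detected in cell 31 alone, at 20.96 RPKM. Grin2d did not exceed 4.88 RPKM and Grin2c, a subunit of the cerebellum, was listed at 0. Grin2b was the highest GluN2 gene in 24 cells, and Grin2d in cell 5. Grin1 and a GluN2 gene were detected together in 15 cells (60%, interval 38.7 to 78.9%), Grin1 without GluN2 in 6, GluN2 without Grin1 in cells 6, 15 and 34, and neither in cell 12. Not detected here often meant a value under 10 RPKM. Cell 12 had Grin1 at 5.39 and Grin2b at 7.54 RPKM. Grin1 was at 5.51 RPKM in cell 15, 4.58 in cell 34 and 0 in cell 6. In the 6 cells with Grin1 alone, Grin2b ran from 0 (cell 5) to 6.1 RPKM (cell 25). With any value above 0 counted, Grin1 met a GluN2 gene in 24 cells. The ratio of Grin2b to Grin1 in RPKM had a median of 0.807 over the 24 cells with Grin1 above 0, and ran from 0 (cell 5) to 3.55 (cell 34).

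Grin3a, a glycine-binding subunit that lowers calcium entry and magnesium block, was detected in 4 cells. It stood at 38.1 RPKM in cell 2, 20.4 in cell 7, 29.7 in cell 27 and 76.0 in cell 34, and at or below 4.14 RPKM elsewhere. In cells 2, 7 and 27 Grin1 was detected as well, at 10.1, 23.3 and 23.8 RPKM, and in cell 34 it was at 4.58 RPKM. Grin3b, known from motor neurons, was listed at 0 in all cells. Cells 7 and 27, singled out with earlier results of these data known, had the glutamate transporter Slc17a6 at 149 and 20.7 RPKM. The GABA-synthesising enzyme Gad1 was at 0 in cells 7 and 27, and the levels of both genes in other cells are not given. Cells 7 and 27 had the highest levels of Gabrb1, namely 245 RPKM for cell 7 and 255 RPKM for cell 27. Gabrb1 is 1 of the 42 members described, and whether its level goes with Slc17a6 or Gad1 was not tested. The 2 cells differed in other members. Cell 7 had 21 members detected and the highest AMPA sum of all cells. Cell 27 had 13 and an AMPA sum of 149 RPKM, the eighth highest.

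Kainate receptor genes were widespread, and at 10 RPKM no single gene was found in most cells. At 5 RPKM Grik2 was found in 15 cells (60%) and Grik1 in 13 cells (52%). At least 1 of the 5 was detected in 22 cells (88%, interval 68.8 to 97.5%), all but cells 1, 14 and 27. Grik1, Grik2 and Grik3 encode the subunits GluK1 to GluK3, which can form channels by themselves. Grik1 was detected in 12 cells and reached 95.9 RPKM in cell 2, and Grik2 in 11 cells, with 46.0 RPKM in cell 43. Grik3 was detected in 5 cells and reached 20.6 RPKM in cell 3. Grik1 was listed at 0 in 12 cells and Grik2 in only 4, although they were detected about equally often, and each led the 3 genes in 11 cells. Grik4 and Grik5 encode the high-affinity subunits, which need a partner of the first kind to form a channel. Grik4 was detected in 10 cells and reached 97.4 RPKM in cell 7, and Grik5 in 9 cells, with 146 RPKM in cell 15. A high-affinity gene was detected in 16 cells, 13 of them with a low-affinity gene and 3 (cells 6, 9 and 12) without. In cell 6 Grik4 stood at 68.5 RPKM while Grik1, Grik2 and Grik3 were all listed at 0. All 5 kainate genes were detected in cell 26 only, where they summed to 227 RPKM.

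Grid1 encodes a delta receptor, a protein that binds cerebellins across the synapse. It was detected in 10 cells (40%, interval 21.1 to 61.3%), was listed at 0 in 11 and reached 110.4 RPKM in cell 6. Grid1 and Grin1 were detected together in 7 cells, 70% of the cells with Grid1 and 33.3% of those with Grin1. Grin1 was detected in 84% of all cells, so its share among the cells with Grid1 was the lower one. Spearman's correlation of Grin1 with Grid1 over all cells was -0.42, and whether the genes avoid each other was not tested.

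At 10 RPKM, each metabotropic glutamate receptor gene described was found in a minority of the cells. In group I, which raises calcium through Gq proteins, Grm5 was detected in 11 cells (44%, interval 24.4 to 65.1%) and reached 66.6 RPKM in cell 17. Group II, which lowers transmitter release through Gi proteins, was rare: Grm2 was seen only in cell 8, with 71.4 RPKM, and cell 24, with 36.3 RPKM, while Grm3, common in glia as well as neurons, had 40.9 RPKM in cell 10. Both were listed at 0 in all other cells, so these genes were either far above the detection level or not seen. In group III, which acts in the same way mainly at nerve endings, Grm8 was detected in 8 cells and reached 52.5 RPKM in cell 5. Grm7 was detected in 7 cells and reached 86.5 RPKM in cell 6, and Grm4 in 4 cells (5, 10, 13 and 26), with 49.2 RPKM in cell 5. Grm7 and Grm8 were detected together in cells 9 and 24 only, and Grm4 and Grm7 in no cell. Grm8 was thus found in 28.6% of the cells with Grm7, against 32% of all cells. Grm7 was detected in 28% of all cells and Grm4 in 16%, and whether any of these genes avoid each other was not tested. Grm6, the receptor of retinal ON bipolar cells, was listed at 0.

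Few genes followed each other from cell to cell. Over the 406 pairs of the 29 members detected in at least 4 cells, Spearman's correlation over the 25 cells had a median of 0.024 and ran from -0.59 (Gabra4 with Grin3a) to 0.74 (Gabrb2 with Gria3). The cells share a pool of animals and differ in depth and gene number, so these values describe the cells only, and the named pairs were chosen after their values were seen. All 8 cells with Gabrb2 had Gria3, which is 61.5% of the 13 cells with Gria3. Gria3 was detected in 52% of all cells and Gabrb2 in 32%. Among the AMPA genes, Gria2 and Gria3 had a correlation of 0.63. Gabra3, Gabrb1, Gria1, Gria2, Grin1 and Grin2b, each found in most cells, were all detected together in 8 cells (32%, interval 14.9 to 53.5%). This set was chosen after the data were seen, from the 12 members detected in at least 13 cells.

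Genes that assemble, anchor or modify these receptors, or bear on their ligands and ion gradients, were found at many levels, and glycine receptor genes were listed with them. Of the 49 genes on these lists, 14 were detected in at least 13 cells, 31 in 1 to 12 and 4 in none, with a median of 7 cells. Among all genes of the table, 42.7% were detected in at least 1 cell and 13.5% in at least 13. For GABA-A receptors, 7 of 8 partners were detected in at least 13 cells, led by the trafficking genes Gabarapl2, Gabarap and Clptm1, which were found in all 25 at medians of 355, 197 and 69.6 RPKM. Of 12 AMPA auxiliary genes, Cnih2, a cornichon that slows channel closing, had a median of 109 RPKM and was found in 24 cells, Shisa9 in 14 and Cnih3 in 11. The kainate auxiliary genes Neto1 and Neto2 were detected in 7 and 3 cells. The GABA-B auxiliary genes Kctd8, Kctd16 and Kctd12b were detected in 7, 4 and 3 cells. Among 10 scaffold genes, Dlg4, which encodes PSD-95, was detected in 16 cells, Dlg1 in 11 and Shank1 in 10, and Homer3 was listed at 0 throughout.

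The other genes on these lists bear on editing, ligands, ion gradients and the glycine receptor. Adar was detected in 18 cells, and Adarb1, which edits the Gria2 codon shown above, in 4, although it was above 0 in 15. Cbln4, a cerebellin, was detected in 16 cells, Cbln2 in 5 and Cbln1 in 3, and Cbln3 did not exceed 0.82 RPKM. Srr, which makes the NMDA co-agonist D-serine, was detected in 12 cells. The chloride exporter Slc12a5, which keeps GABA inhibitory in mature neurons, had a median of 30.2 RPKM and was found in 18 cells, while the importer Slc12a2 did not exceed 7.47 RPKM in any cell. Glrb, the beta subunit of the glycine receptor, had a median of 55.6 RPKM and was found in 24 cells, against 6 cells for Glra2 and 2 for Glra1, and Glra4 did not exceed 0.33 RPKM.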

How the data were processed

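The values the authors deposited are RPKM, judged by their decimals and by low values that fall on read steps. Tools named in the submitters' processing notes, with no role or order, are featureCounts 1.4.6, SAMtools 0.1.19, Picard 2.5.0, TopHat2 2.0.14 and bcl2fastq, and the builds named are GRCm38 and mm10. The annotation is not given in the sources used here. Of 33082 rows, 26 with date-like names were left out, and for 755 repeated symbols only the highest-sum row was used. GENCODE M21 supplied gene positions and exon lengths. Value times length summed to 1.38 to 1.46 times the total expected per cell, so read numbers are estimates. On simulated data (22715 genes, 12 depths) the largest error of the depth finder was 0.454%. The gene lengths the authors used are not known, so this error does not carry over to the real cells. How far their estimated depths are off was not tested. RefSeq promoters matched 32 of the 42 members described. Results for the other 5 members, for receptor classes that hold them and for 1 cell type marker are not reported here. Every other member is named, those detected in at least 13 cells with lowest, median and highest value; of each partner group up to 3 members detected in most cells, and those in none, are named. Members and lists were chosen with earlier results of these data known. The sets of GABA-A genes counted together were chosen after the data were seen. Smart-Seq2 has no molecular identifiers, so reads are not independent molecules. Python 3.11.15, pandas 2.3.3, NumPy 2.4.6, SciPy 1.17.1 and Matplotlib 3.10.9 were used.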

Additional observations from a re-analysis of the deposited data

How the results depend on the processing

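The detection level set most counts. At 20 RPKM, 5 members were detected in at least 13 cells in place of 12, Gabra3 with Gabrb1 and Gabre was found in 24% of cells in place of 44%, Gabre or Gabrq in 48% in place of 76%, and Grin1 with a GluN2 gene in 16% in place of 60%. With any value above 0 counted, 22 members passed, and the shares were 92% for Gabre or Gabrq, 96% for Grin1 with GluN2 and 100% for a kainate gene. At 10 or more estimated reads, 21 members passed, and the shares were 88% for Grin1 with GluN2 and 100% for a kainate gene. At 5 RPKM, with every cell rescaled to 1 sum, without the shallowest cell (9, chosen after the data were seen) or without the 6 cells with Malat1 under 20 RPKM (1, 3, 5, 6, 29 and 31), these values stayed within their intervals or within 1.5 times. Of the 10 receptor classes described as a whole, 6 had the same leading gene when ranked by the median, since in the rho, GluN3 and metabotropic group II and III classes all medians were 0. Grik1 and Grik2 led in equal numbers of cells, also without the 6 cells, where the tie, broken by the median, went to Grik1 in place of Grik2. Over all cells Grik2 had the higher median, at 9.06 RPKM, against 8.05 RPKM for Grik1. Grik1 led in more cells without cell 9 and where cells with a class sum under 10 RPKM were left out, and Grik4 led Grik5 in the last case. No paired analysis was possible because there is 1 group and no test. With 25 cells of 1 pool, a share of 44% carries an interval of 24.4 to 65.1%.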
